A study of Mus musculus with 14 samples.

Results

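Oligodendrocyte precursors and their progeny were followed through 10 genes, chosen by symbol among the 46904 genes of the expression table: Pdgfra, Cspg4, Ptprz1 and Tnr (surface and matrix molecules of the precursor), Olig1, Olig2 and Sox10 (lineage transcription factors), and Gpr17, Bcas1 and Enpp6 (markers of committed and premyelinating cells). All 10 were measured in every library and passed the filter on low values. Expression was given as RPKM, reads on a gene scaled to its length and to the size of the library.

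Libraries were made from whole brain hemispheres of 12-week-old mice, 48 h after the left middle cerebral artery had been closed for 20 min with a filament (MCAO). The ischemic hemisphere is named MCAO and the opposite, healthy one CL. Wild-type (Cort+/+) mice gave 3 CL and 3 MCAO libraries, and mice with a constitutive loss of the neuropeptide cortistatin (Cort-/-, on a C57BL/6J background) gave 3 CL and 5 MCAO libraries. The Cort+/+ MCAO libraries are replicates 2, 3 and 4, and the protocol speaks of more MCAO replicates than these, which were not analysed here. Every group, CL included, comes from operated animals, so the CL groups stand for tissue opposite a stroke and not for unoperated brain, and whether a CL and an MCAO library came from the same mouse is not stated. Where replicates varied widely the authors kept only those that grouped clearly, and the study used male mice.

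Depth was 25989679 to 43032304 reads on genes per library, and the 10 genes held between 222 and 11284 reads in a library, so counting error alone was 0.941% to 6.71% of a value. Cort had 64 to 139 reads in the 6 Cort+/+ libraries and 0 to 4 in the 8 Cort-/- libraries, as labelled. The 9 neuronal marker genes examined, among them Snap25 (a synaptic vesicle fusion protein) and Rbfox3 (the nuclear antigen NeuN), summed to between 2149 and 2836 RPKM in every library. In whole hemispheres, fewer cells of a type and less RNA per cell cannot be told apart.

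Oligodendrocyte precursors are the main dividing glial cells of the adult brain. They carry the receptor for platelet-derived growth factor A and the NG2 proteoglycan, depend on OLIG2 and SOX10 for their identity, and on leaving the cell cycle pass through a short-lived committed stage before they wrap axons in myelin. After focal ischemia such precursors are known to divide around the lesion, while mature oligodendrocytes in the core are lost.

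None of the 10 genes differed between hemispheres or genotypes at a Benjamini-Hochberg adjusted p under 0.05 (limma, one model of the 4 groups on log2(RPKM + 0.1), 46102 genes tested). Group means of a gene differed by at most 1.27-fold, the figure for Bcas1 between Cort-/- MCAO and CL hemispheres. The lowest unadjusted p-values were those of Olig2, Bcas1 and Tnr between the hemispheres of Cort-/- mice, with Olig2 and Bcas1 higher and Tnr lower in MCAO. In the same comparison 7 of 9 microglial and 7 of 9 proliferation markers passed the adjusted threshold, all higher in MCAO, beside 1.72% of all genes. In Cort+/+ mice 0 of 9 and 1 of 9 passed it, beside 0.0108%. These counts rested on single libraries. Without Cort+/+ MCAO replicate 4 the Cort+/+ counts were 5 and 6, and without Cort-/- CL replicate 1 the Cort-/- counts were 2 and 4. All 9 of each list were still higher in MCAO hemispheres of Cort+/+ mice. Their median log2 differences were 0.86 and 1.86 in Cort+/+ and 0.99 and 2.16 in Cort-/- mice.

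Upstream sequences are shown for 3 of the genes: Pdgfra, which defines the precursor, and Olig2 and Tnr, whose values separated the hemispheres of Cort-/- mice without overlap and in opposite directions. RefSeq promoter entries (GRCm38.p6) were matched for Pdgfra, Cspg4, Ptprz1, Tnr, Olig2 and Enpp6 (6 genes). Olig1, Sox10 and Bcas1 had no entry. The 250 bases before each RefSeq start were searched for motifs and placed by exact match on GRCm39, plus strand. Bases that GENCODE places in an exon are not printed (78 for Pdgfra, 140 for Olig2, 0 for Tnr). The printed stretches are chr5:75312662-75312833 and chr16:91022188-91022297, both in an intron of longer transcripts of Pdgfra and Olig2, and chr1:159351089-159351338, just before Tnr. Capitals mark the 2 motifs searched on both strands, the E-box CANNTG that basic helix-loop-helix factors such as OLIG2 bind, and ACAAT, a core of sites for SOX factors, which reads ATTGT on the other strand. The motifs did not overlap in these windows.
Pdgfra: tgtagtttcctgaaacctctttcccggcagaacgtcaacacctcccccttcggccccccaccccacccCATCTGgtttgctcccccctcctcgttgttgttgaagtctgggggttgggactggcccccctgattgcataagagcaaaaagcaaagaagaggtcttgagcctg
Olig2: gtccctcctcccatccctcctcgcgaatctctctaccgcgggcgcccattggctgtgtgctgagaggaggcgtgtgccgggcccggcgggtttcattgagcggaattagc
Tnr: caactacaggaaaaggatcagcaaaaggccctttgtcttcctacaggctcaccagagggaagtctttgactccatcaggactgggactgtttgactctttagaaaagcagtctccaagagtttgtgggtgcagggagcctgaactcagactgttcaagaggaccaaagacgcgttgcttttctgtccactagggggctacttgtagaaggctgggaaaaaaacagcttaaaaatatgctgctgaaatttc

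The Pdgfra window held 1 E-box (CATCTG, first base 182 bases before the start) and no ACAAT. The Olig2 window held no E-box and 1 ACAAT match (as ATTGT, 67 bases before the start, in the exon that is not printed), and the Tnr window held neither. The windows had a GC content of 54.4% (Pdgfra), 66.8% (Olig2) and 46.8% (Tnr), beside a median of 52.4% over 32851 promoters. Of these, 66.2% held an E-box and 27.7% an ACAAT match in the same length. A match is a description of letters, and its absence from 250 bases says nothing of the factors.

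Levels were compared per length of transcript. Averaged over the 14 libraries, Bcas1 had the highest expression (57.0 RPKM), followed by Olig1 (46.7), Ptprz1 (24.0), Tnr (21.6), Sox10 (18.8), Olig2 (12.0), Gpr17 (8.17), Pdgfra (7.28), Cspg4 (3.12) and Enpp6 (1.82). Neighbours in this order whose ranges over all libraries did not overlap were Olig1 and Ptprz1, Sox10 and Olig2, Pdgfra and Cspg4, and Cspg4 and Enpp6. Bcas1 exceeded Olig1 in 13 of 14 libraries, Ptprz1 exceeded Tnr in 13, Tnr exceeded Sox10 in 12 and Gpr17 exceeded Pdgfra in 10, so these pairs overlapped in range. Olig2 exceeded Gpr17 in all 14, although the 2 ranges overlapped. In Cort-/- MCAO hemispheres the mean of Pdgfra (7.60 RPKM) was above that of Gpr17 (7.39 RPKM), the reverse of the other groups, though Gpr17 exceeded Pdgfra in 3 of these 5 libraries.

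**Figure D1:**
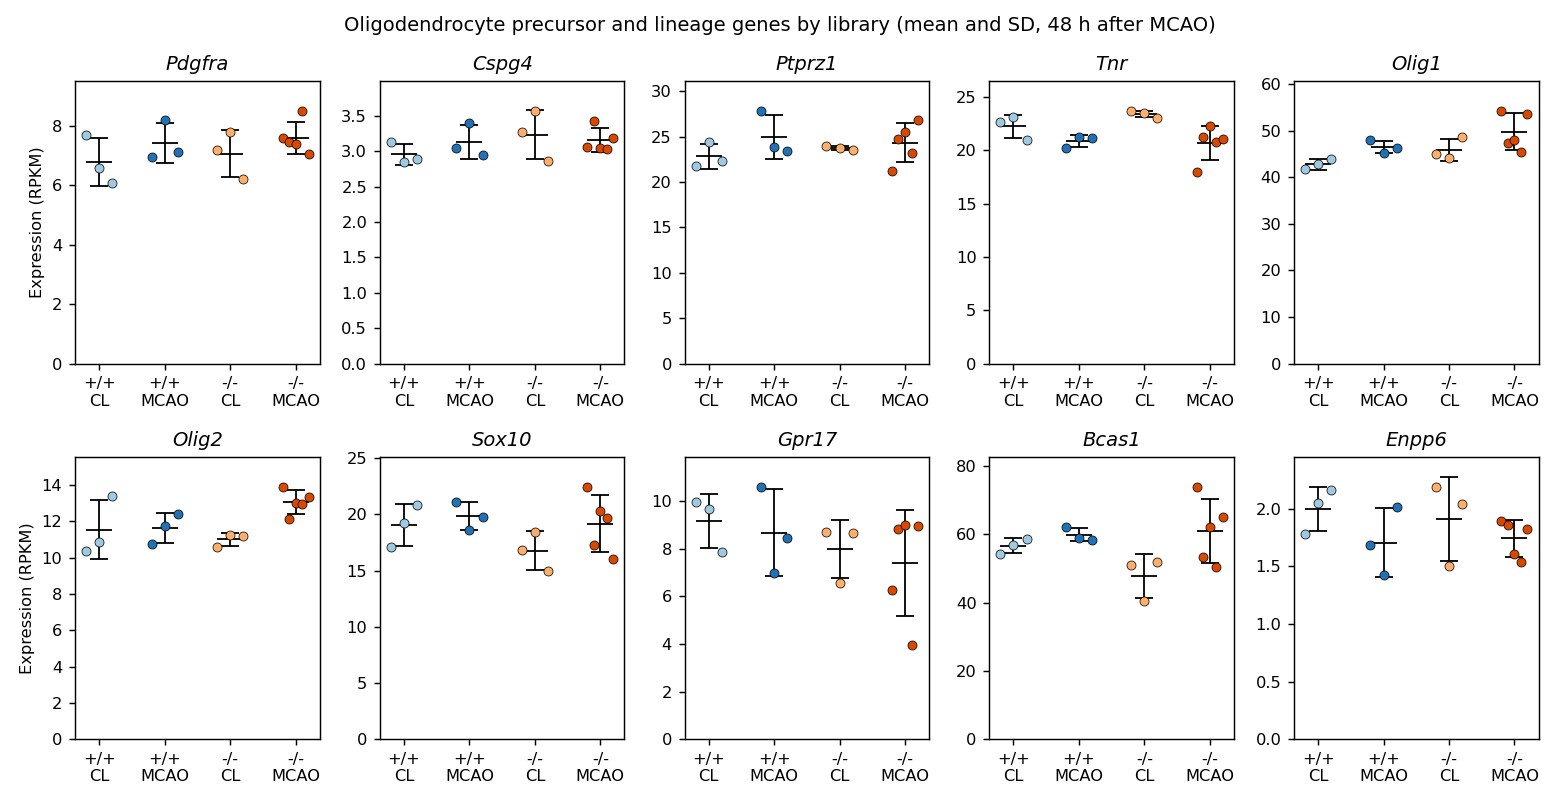
Expression (RPKM, linear axes from 0) of the 10 genes in the CL and MCAO hemispheres of Cort+/+ and Cort-/- mice, each point a library, with the mean and SD of each group (n = 3, 3, 3 and 5 libraries). The groups lie close together for most genes, Olig2 and Tnr separate the hemispheres of Cort-/- mice, and Gpr17 spreads most, from 3.96 to 8.97 RPKM among the Cort-/- MCAO libraries.

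Among the surface and matrix genes, Pdgfra (the receptor for platelet-derived growth factor A, GRCm39 chr5:75311994-75358876, plus strand) was at 7.68, 6.57 and 6.09 RPKM in Cort+/+ CL and at 6.96, 8.21 and 7.12 RPKM in Cort+/+ MCAO hemispheres. Cort-/- mice had 7.20, 7.79 and 6.22 RPKM in CL and 7.61, 7.47, 7.39, 8.49 and 7.05 RPKM in MCAO hemispheres. In both genotypes 1 MCAO library (Cort+/+ replicate 3 and Cort-/- replicate 4) lay above all CL libraries and the others lay within their range. The log2FC between hemispheres was 0.13 in Cort+/+ (95% interval −0.09 to 0.36, adjusted p = 0.887) and 0.11 in Cort-/- mice (−0.09 to 0.31, adjusted p = 0.713). Pdgfra is also carried by fibroblasts, whose 8 markers summed to 34.8 to 43.3 RPKM in the CL and 39.7 to 51.4 RPKM in the MCAO libraries. The part of fibroblasts in the Pdgfra values was not tested.

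Cspg4 (the NG2 proteoglycan, chr9:56772317-56807187, plus strand), which pericytes carry too, ranged from 2.85 to 3.56 RPKM over all libraries. Its log2FC was 0.08 in Cort+/+ (SE 0.09) and −0.03 in Cort-/- mice (SE 0.08), with overlapping hemispheres. Pericyte and smooth muscle markers, 8 genes, summed to 53.4 to 66.3 RPKM in CL and to 60.7 to 73.3 RPKM in MCAO libraries. Ptprz1 (a receptor tyrosine phosphatase of precursors and astrocytes, chr6:22875358-23054236, plus strand) lay between 21.3 and 27.8 RPKM, with a log2FC of 0.13 (SE 0.08) in Cort+/+ and 0.03 (SE 0.08) in Cort-/- mice. Its 3 Cort-/- CL libraries had an SD of 0.894% of their mean, while the 5 Cort-/- MCAO libraries lay on both sides of them, 3 above and 2 below. The 8 astrocyte markers summed to 818 to 1001 RPKM in CL and 887 to 1074 RPKM in MCAO libraries, and the part of pericytes or astrocytes in the Cspg4 and Ptprz1 values was not tested.

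Tnr encodes tenascin-R, a matrix glycoprotein of perineuronal nets and of the oligodendrocyte lineage (chr1:159351339-159759299, plus strand). It was at 22.6, 23.1 and 21.0 RPKM in Cort+/+ CL and at 20.2, 21.3 and 21.2 RPKM in Cort+/+ MCAO hemispheres. Cort-/- mice had 23.7, 23.5 and 23.0 RPKM in CL and 18.0, 21.3, 22.3, 20.8 and 21.1 RPKM in MCAO hemispheres. All 5 Cort-/- MCAO libraries were below all 3 CL libraries, whereas in Cort+/+ mice only 1 of 3 was. The mean was 20.7 ± 1.61 (SD, n = 5) against 23.4 ± 0.324 RPKM (SD, n = 3), a log2FC of −0.18 (SE 0.06, unadjusted p = 0.0103, limma adjusted p = 0.180). In Cort+/+ mice the log2FC was −0.09 (95% interval −0.23 to 0.06), and the difference between the genotypes in this response was −0.09 (95% interval −0.29 to 0.10, interaction adjusted p = 1.00). Neurons make Tnr as well, and the 9 neuronal markers had a median log2FC of −0.12 in Cort-/- and −0.08 in Cort+/+ mice. The part of neurons in the Tnr values was not tested.

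The transcription factors Olig1 and Olig2, basic helix-loop-helix proteins, are neighbours on chromosome 16 (chr16:91066660-91068821 and chr16:91019435-91025567, both plus strand, 41.1 kb apart). Olig2 was at 10.4, 10.8 and 13.4 RPKM in Cort+/+ CL and at 10.8, 11.7 and 12.4 RPKM in Cort+/+ MCAO hemispheres. In Cort-/- mice it was at 10.6, 11.2 and 11.2 RPKM in CL and at 13.9, 12.1, 13.0, 12.9 and 13.4 RPKM in MCAO hemispheres. The Cort-/- MCAO libraries all exceeded the Cort-/- CL libraries, but the highest Cort+/+ CL library reached the same level as they did. Mean expression was 13.1 ± 0.650 (SD, n = 5) against 11.0 ± 0.361 RPKM (SD, n = 3) in Cort-/- mice, a log2FC of 0.24 (SE 0.08, unadjusted p = 0.00786, limma adjusted p = 0.157). In Cort+/+ mice the log2FC was 0.02 (95% interval −0.17 to 0.21, adjusted p = 1.00). The genotypes differed in this response by a log2FC of 0.22 (95% interval −0.03 to 0.48, interaction unadjusted p = 0.0768, adjusted p = 1.00), which did not pass the threshold.

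Olig1 was at 41.7, 42.7 and 43.9 RPKM in Cort+/+ CL and at 48.0, 45.2 and 46.3 RPKM in Cort+/+ MCAO hemispheres. Cort-/- mice had 45.0, 44.0 and 48.5 RPKM in CL and 54.1, 47.4, 48.0, 45.3 and 53.7 RPKM in MCAO hemispheres. The hemispheres of Cort+/+ mice did not overlap, and those of Cort-/- mice did, with 2 of 5 MCAO libraries above all CL libraries. The log2FC was 0.12 in Cort+/+ (95% interval −0.02 to 0.26) and 0.11 in Cort-/- mice (−0.02 to 0.24), with adjusted p-values of 0.745 and 0.473. The interaction of genotype and MCAO for Olig1 was −0.01 (95% interval −0.20 to 0.19).

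Sox10 (an HMG box factor that switches on myelin genes, chr15:79039108-79049469, minus strand) ranged from 15.0 to 22.4 RPKM. Its log2FC was 0.06 (SE 0.12) in Cort+/+ and 0.19 (SE 0.11) in Cort-/- mice, and 3 of 5 Cort-/- MCAO libraries lay above all Cort-/- CL libraries.

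Gpr17, a G protein-coupled receptor on chromosome 18 that appears as precursors commit to differentiate and disappears before myelination, was the most variable of the 10. It was at 9.95, 9.65 and 7.85 RPKM in Cort+/+ CL and at 10.6, 6.99 and 8.45 RPKM in Cort+/+ MCAO hemispheres. Cort-/- mice had 8.72, 6.56 and 8.65 RPKM in CL and 6.28, 8.82, 8.97, 3.96 and 8.93 RPKM in MCAO hemispheres. Cort-/- MCAO replicate 4 was the lowest library, 2.68-fold below the highest. The SD within Cort-/- MCAO was 30.2% of the mean, beside 2.62% expected from counting. The log2FC was −0.09 in Cort+/+ (95% interval −0.67 to 0.49) and −0.16 in Cort-/- mice (−0.68 to 0.36). These intervals are the widest among the 10 genes, and both include a level 1.5-fold lower in MCAO hemispheres. Gpr17 shares 320 exon bases (5.93%) with Lims2 on the opposite strand, which was at a mean of 4.41 RPKM. The library kit keeps the strand, but the setting used in counting is not given in the sources used here.

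Bcas1, a protein of early myelinating oligodendrocytes (chr2:170188911-170269765, minus strand), was at 54.4, 57.0 and 58.7 RPKM in Cort+/+ CL and at 62.1, 59.0 and 58.5 RPKM in Cort+/+ MCAO hemispheres. In Cort-/- mice it was at 51.0, 40.5 and 52.0 RPKM in CL and at 73.9, 53.3, 62.1, 50.6 and 65.0 RPKM in MCAO hemispheres. Of the MCAO libraries, 4 of 5 exceeded all CL libraries in Cort-/- mice and 2 of 3 did in Cort+/+ mice. Means in Cort-/- mice were 61.0 ± 9.35 (SD, n = 5) and 47.9 ± 6.34 RPKM (SD, n = 3), a log2FC of 0.34 (SE 0.11, unadjusted p = 0.00871, limma adjusted p = 0.166). In Cort+/+ mice the log2FC was 0.08 (95% interval −0.19 to 0.35), and the interaction was 0.27 (95% interval −0.10 to 0.63, adjusted p = 1.00). The lowest library, Cort-/- CL replicate 2, moved this value most, and without it the Cort-/- log2FC of Bcas1 was 0.23 (limma adjusted p = 0.462).

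Enpp6 (a choline phosphodiesterase of newly forming oligodendrocytes, chr8:47439919-47549797, plus strand) was the least abundant, at 1.42 to 2.19 RPKM and 222 to 430 reads. Its log2FC was −0.22 (SE 0.15) in Cort+/+ and −0.11 (SE 0.14) in Cort-/- mice, with 2 of 3 Cort+/+ MCAO libraries and none of the Cort-/- MCAO libraries below all CL libraries of their genotype.

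**Figure D2:**
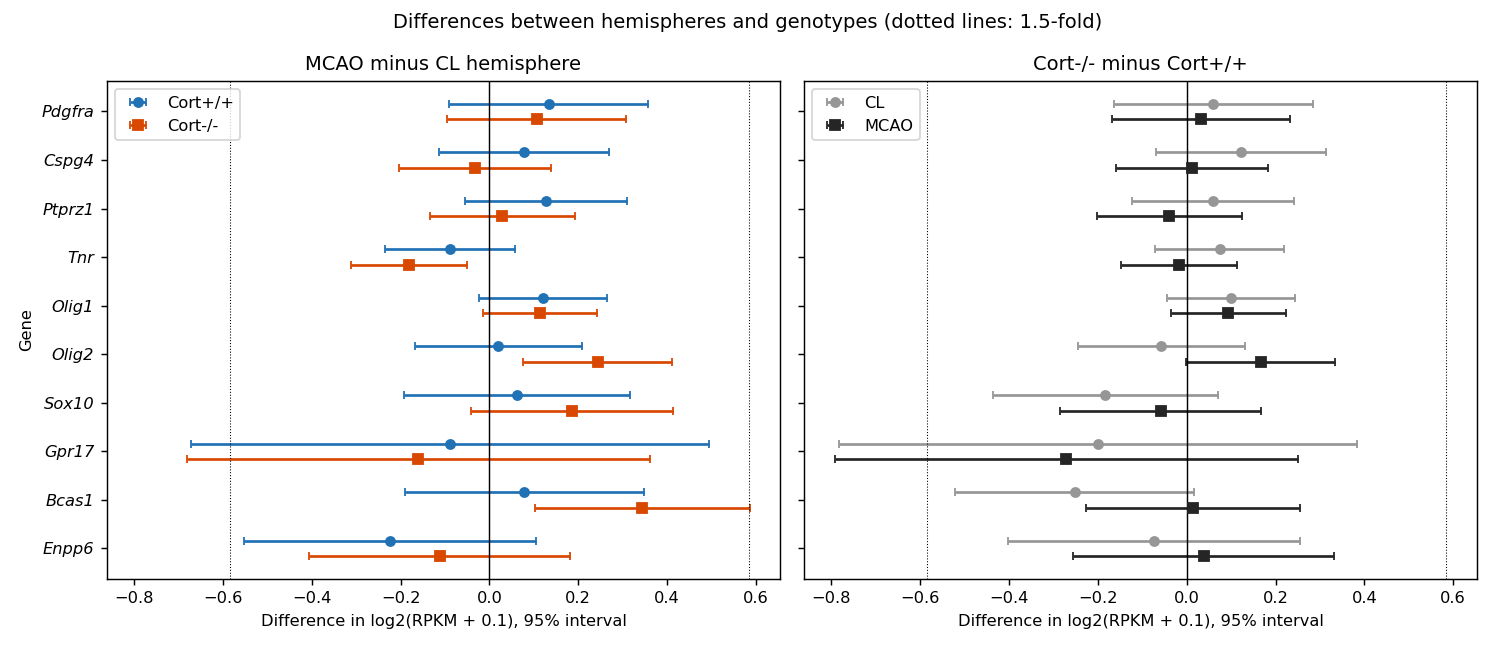
Differences in log2(RPKM + 0.1) with 95% intervals from the limma model, MCAO minus CL hemisphere in Cort+/+ (circles) and Cort-/- mice (squares) on the left, and Cort-/- minus Cort+/+ in CL (circles) and MCAO hemispheres (squares) on the right, with dotted lines at 1.5-fold. The intervals of Tnr, Olig2 and Bcas1 in Cort-/- mice leave out 0, and those of Gpr17 are the widest.

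Counted over the 10 genes, the MCAO against CL comparison of Cort+/+ mice called 0 of 10, where 0.0108% of all genes tested were called (5 of 46102). At an unadjusted p under 0.05 it gave 0 of 10, beside 7.87% of all genes, and the hemispheres did not overlap for 1 of 10 (Olig1), beside 9.84%. The median log2FC of the 10 was 0.07, beside 0.00 over all genes tested. In Cort-/- mice 0 of 10 were called, beside 1.72% of all genes (792), and 3 of 10 had an unadjusted p under 0.05, beside 12.7%. The hemispheres did not overlap for 2 of 10 (Olig2 and Tnr), beside 9.11%, and the median log2FC was 0.07. The counts over all genes rested on single libraries and on the model. In Cort-/- mice they were 616 higher and 176 lower, but 80 and 50 without Cort-/- CL replicate 1, 96 and 48 without CL replicate 3, and 61 and 25 with only these groups in the fit. With the replicate number as a block limma called 0 genes, with 4565 at an unadjusted p under 0.05. In Cort+/+ mice they were 4 higher and 1 lower, but 153 and 6 without Cort+/+ MCAO replicate 4, so the background shares of the genotypes are not compared. Many genes in the table are barely expressed. Taking only the 15063 whose mean reached 1 RPKM, the Cort-/- hemisphere comparison called 4.08% and gave 24.6% at an unadjusted p under 0.05, a share near 3 of 10. With limma voom on the recovered reads, the counts of the 10 genes called were 0 in both genotypes, and 0 and 3 had an unadjusted p under 0.05.

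The 95% intervals give the range of differences that the model allows for each gene taken singly. The authors' choice of replicates can lower the spread within groups, so the intervals may be too narrow. In Cort+/+ mice the interval lay within 1.5-fold in either direction for 9 of 10 genes (all but Gpr17), and in Cort-/- mice for 8 of 10 (all but Gpr17 and Bcas1). Within 2-fold it lay for all 10 in both. A count of 0 called does not show that levels were equal.

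Between genotypes, Cort-/- and Cort+/+ libraries were compared within each hemisphere, all from operated mice. In CL hemispheres 0 of 10 genes were called (0.0152% of all genes), 0 had an unadjusted p under 0.05 (3.91%), and the genotypes did not overlap for 2 of 10 (6.25%). These were Bcas1, lower in all 3 Cort-/- CL libraries (log2FC −0.25, SE 0.12, unadjusted p = 0.0643), and Olig1, higher in all 3 (log2FC 0.10, SE 0.07, unadjusted p = 0.159). Sox10 had a log2FC of −0.18 (SE 0.12). In MCAO hemispheres 0 of 10 were called (0.0174%), 0 had an unadjusted p under 0.05 (3.82%), and 0 were without overlap (2.42%). Olig2 came nearest, with 4 of 5 Cort-/- libraries above all Cort+/+ libraries and a log2FC of 0.17 (SE 0.08, unadjusted p = 0.0513, limma adjusted p = 1.00). Gpr17 had a log2FC of −0.27 (95% interval −0.79 to 0.25). The interaction of genotype and MCAO called 0 of 10 (0.00217% of all genes), and 0 had an unadjusted p under 0.05 (3.31%). Limma voom called 0 of 10 in each of these 3 comparisons, with 1, 0 and 0 genes at an unadjusted p under 0.05. The hemisphere and genotype comparisons share libraries and are not independent of each other.

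Other genes of the lineage, a list of 40 from receptors (Cspg5, Megf11) to regulators of differentiation (Nkx2-2, Sox6, Hes5) and PDGF ligands, was described beside the 10. In Cort+/+ mice 0 were called and the median log2FC was −0.02, and in Cort-/- mice 1 of 40 was called, lower, with a median of −0.02. This count is near the background, 1.72% of all genes tested and 4.08% of those that averaged 1 RPKM or more. That gene was Id4, an inhibitor of basic helix-loop-helix factors that holds precursors back from differentiation and is also made by astrocytes. Id4 fell from 23.0 ± 1.61 (SD, n = 3) to 15.7 ± 1.39 RPKM (SD, n = 5) in Cort-/- mice, lower in 5 of 5 MCAO libraries (log2FC −0.55, SE 0.08, limma adjusted p = 0.00887). In Cort+/+ mice its means were 22.0 ± 1.68 and 18.0 ± 0.972 RPKM (SD, n = 3 each), below all CL libraries in 3 of 3 (log2FC −0.29, SE 0.09, limma adjusted p = 0.340). The difference in response between the genotypes was −0.26 (interaction unadjusted p = 0.0451, adjusted p = 1.00). Its Cort-/- log2FC lay between −0.61 and −0.49 under every alternative, but Id4 was not called when the other groups were left out of the fit, or with the replicate block, which called no gene of the table. Voom called 0 and 2 genes of this list.

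Mature myelin genes, 20 in all, had a median log2FC of −0.05 in Cort+/+ and 0.11 in Cort-/- mice, with 0 and 1 called (limma voom 0 and 2). Mbp, a main protein of the sheath, had a log2FC of −0.23 in Cort+/+ and of −0.04 in Cort-/- mice. Mog, a surface glycoprotein of myelin, and Myrf, the factor that drives myelin genes, had values of −0.08 and −0.06 in Cort+/+ and of 0.11 each in Cort-/- mice. The gene called was Trf (transferrin, an iron carrier made by oligodendrocytes), which is named here because its value was seen. It rose in Cort-/- mice from 107 ± 4.83 (SD, n = 3) to 226 ± 45.5 RPKM (SD, n = 5), a log2FC of 1.05 (SE 0.15, limma adjusted p = 0.00904), and had a log2FC of 0.70 (SE 0.17, limma adjusted p = 0.243) in Cort+/+ mice. Its Cort-/- log2FC lay between 0.95 and 1.14 under every alternative, and it too was not called with those 2 fits, while leaving out single libraries gave 1 or 2 calls in the list (2 without Cort-/- MCAO replicate 2). In CL hemispheres 19 of 20 myelin genes had lower values in Cort-/- than in Cort+/+ mice (median log2FC −0.15, 0 called). In MCAO hemispheres 11 of 20 did (median −0.01, 0 called), and the median over all genes tested was 0.00 in both. Genes are not replicates, and these counts carry no test.

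**Figure D3:**
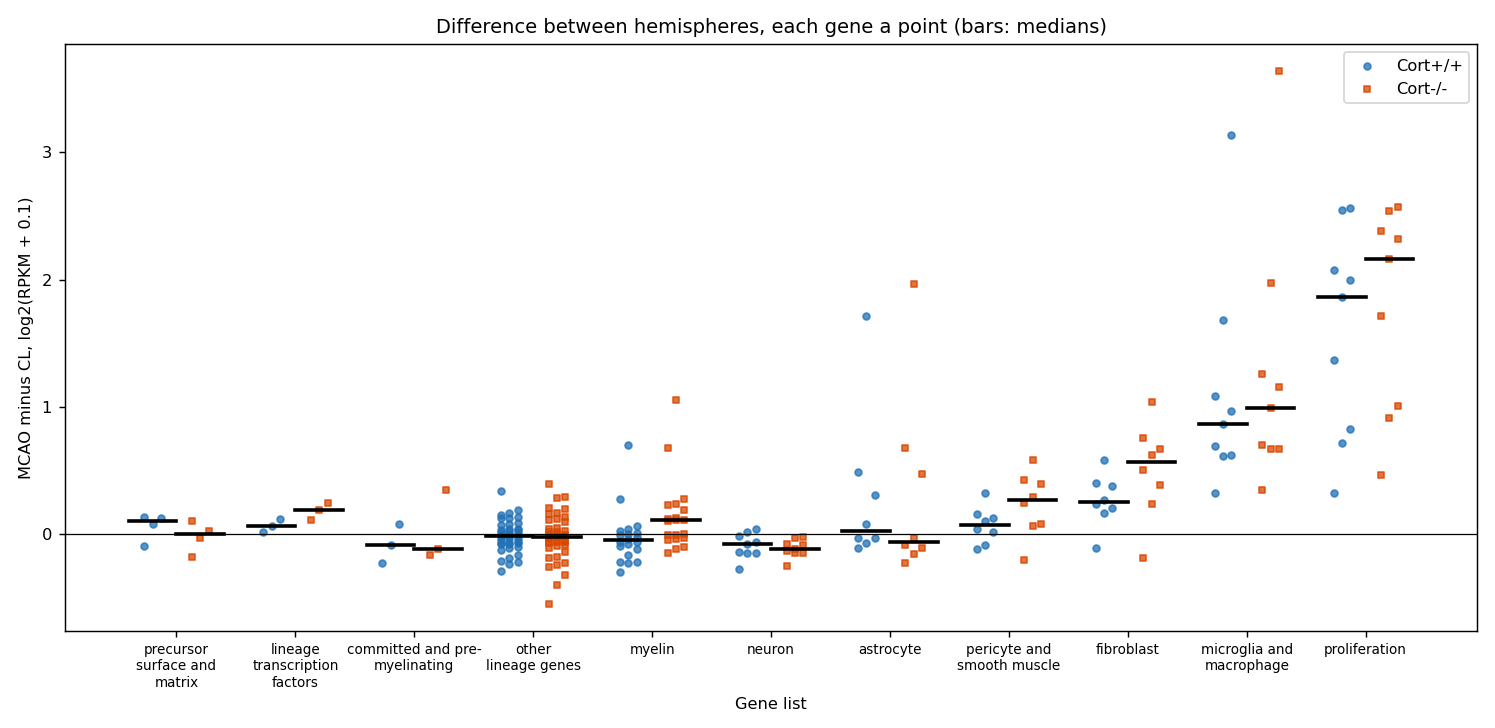
Difference between MCAO and CL hemispheres in log2(RPKM + 0.1) for each gene of the 3 groups of lineage genes and of the other lists, in Cort+/+ (circles) and Cort-/- mice (squares), with medians as bars. Medians of the other lineage and myelin lists lie between −0.05 and 0.11, with Id4 at −0.55 and Trf at 1.05 in Cort-/- mice farthest from them, while microglial and proliferation markers have medians of 0.86 to 2.16.

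Markers of other cells moved in the same libraries. Microglia and macrophage markers summed to 102 to 124 RPKM in CL and 147 to 277 RPKM in MCAO libraries, and 0 of 9 genes were called in Cort+/+ and 7 of 9 in Cort-/- mice. Cx3cr1 and Aif1, both of microglia, rose in the Cort-/- comparison by 0.70 (adjusted p = 0.0281) and 1.16 (adjusted p = 0.0213) on the log2 scale. With only these groups in the fit the Cort-/- count was 1, and with the replicate block 0. Without Cort+/+ MCAO replicate 4 the Cort+/+ count was 5, and without Cort-/- CL replicate 1 or 3 the Cort-/- count was 2. Proliferation genes summed to 21.0 to 25.1 RPKM in CL and 29.3 to 49.8 RPKM in MCAO libraries, with 1 of 9 called in Cort+/+ and 7 of 9 in Cort-/- mice. Mki67 and Top2a, made by dividing cells, stood 2.56 and 2.54 higher on the log2 scale in Cort+/+ MCAO hemispheres (limma adjusted p = 0.0471 and 0.0584). Both rose in Cort-/- mice, Mki67 by a log2FC of 2.57 (adjusted p = 0.00579) and Top2a by 2.54 (adjusted p = 0.00698). The Cort+/+ count ranged from 0 to 6 with 1 library left out, highest without MCAO replicate 4, and the Cort-/- count was 4 without CL replicate 1 or 3. It was 3 with only these groups in the fit and 0 with the replicate block, and the Cort+/+ count was 0 with either. Dividing precursors, microglia and other cells all make these transcripts, and which cells did so was not tested.

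The remaining lists were called in Cort-/- mice only for a few genes. Astrocyte markers gave 2 of 8 (Gfap and Aqp4, log2FC 1.96 and 0.68), fibroblast markers 2 of 8 (Dcn, at 0.67, and Pdgfrl), and pericyte and smooth muscle markers 1 of 8 (Notch3). Pdgfrl and Notch3 are named because they were the ones called. In Cort+/+ mice these 3 lists gave 0 calls, as did the 9 neuronal markers in both genotypes. Over all genes 1.72% were called in Cort-/- and 0.0108% in Cort+/+ mice. The highest astrocyte log2FC in Cort+/+ mice was 1.71, and 3 of 8 were higher at an unadjusted p under 0.05 (7.87% of all genes). Of the fibroblast markers there, 7 of 8 had a positive log2FC. The interaction called 0 genes in each of the 3 lists. Each of the 3 counts in Cort-/- mice was 0 without Cort-/- CL replicate 1, with only these groups in the fit and with the replicate block. The astrocyte count was 0 in 6 and the pericyte count in 11 of the 14 models that left out 1 library. Col1a1 of fibroblasts had a log2FC of 0.62 (limma adjusted p = 0.117). In Cort-/- mice 7 of 8 fibroblast markers were higher at an unadjusted p under 0.05, and their median log2FC was 0.57. That share was 12.7% over all genes and 24.6% over those that averaged 1 RPKM or more. Pdgfrb and Rgs5 of pericytes had log2FC values of 0.24 and 0.08 in Cort-/- mice, and Rbfox3 and Snap25 of neurons had values of −0.08 and −0.25. No marker of these lists was at 0 in a group.

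Lineage genes also differed among the libraries of a group. In each of the 4 groups, the library with the highest Pdgfra (Cort+/+ CL replicate 1, Cort+/+ MCAO replicate 3, Cort-/- CL replicate 2 and Cort-/- MCAO replicate 4) had the lowest Enpp6 of its group and the lowest summed myelin genes. In 3 of the 4 groups it also had the lowest Gpr17 (the exception was Cort+/+ CL) and in 3 of 4 the lowest Bcas1 (the exception was Cort+/+ MCAO). The same libraries had the highest summed proliferation genes of their group in 4 of 4 and the highest summed microglial genes in 3 of 4 groups. In Cort-/- CL replicate 2, for example, Pdgfra was at 7.79 RPKM and Gpr17, Bcas1 and Enpp6 at 6.56, 40.5 and 1.50 RPKM, while the other CL libraries of the genotype had at least 8.65, 51.0 and 2.04 RPKM. Its microglial genes summed to 124 RPKM, beside 103 and 109 RPKM in the others. The other surface and matrix genes did not all follow Pdgfra. In the 4 libraries, in the order named, Ptprz1 deviated from its group mean by −4.5%, −4.7%, −0.07% and −4.6%. Cspg4 deviated by 5.9%, 8.8%, 10.1% and −3.6%, and Tnr by 1.7%, 1.9%, 0.49% and 0.32%. The pattern of the libraries with the highest Pdgfra was noticed after the values were seen and was not tested.

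**Figure D4:**
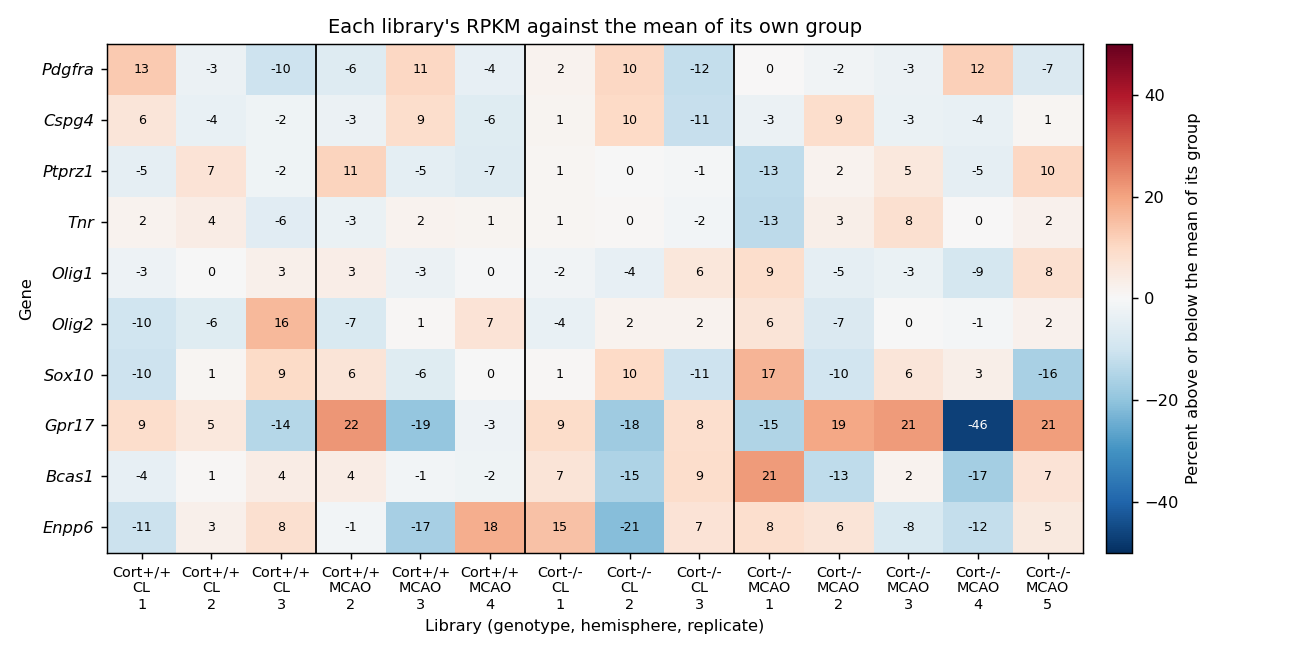
Percent by which the RPKM of each gene in each library lies above (red) or below (blue) the mean of its own group, for the 10 genes and 14 libraries, with black lines between the groups. Gpr17 in Cort-/- MCAO replicate 4 is the farthest, 46.5% below the mean. In Cort-/- CL replicate 2 Pdgfra and Cspg4 lie above while Gpr17, Bcas1 and Enpp6 lie below. In Cort-/- MCAO replicate 4 Pdgfra lies above, while Cspg4 and Ptprz1 lie below together with Gpr17, Bcas1 and Enpp6.

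Cort-/- MCAO replicate 1 stood out in another way. It had the highest Olig1, Olig2, Sox10 and Bcas1 of all 14 libraries (54.1, 13.9, 22.4 and 73.9 RPKM) and the lowest Tnr and Ptprz1 (18.0 and 21.3 RPKM). Without it, the log2FC between the hemispheres of Cort-/- mice was −0.13 for Tnr (adjusted p = 0.243), 0.22 for Olig2 (adjusted p = 0.313) and 0.27 for Bcas1 (adjusted p = 0.297). This library also had the highest summed microglial genes of all 14, 277 RPKM, and their part in these values was not tested.

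Other genes were ranked by how closely they followed each group of lineage genes over the 14 libraries, after the mean of each library group had been subtracted (Pearson r, over the 15053 other genes that averaged 1 RPKM or more). The surface and matrix genes were followed most closely by Rev3l (r = 0.911), Exoc6b (0.843) and Tmf1 (0.842), the transcription factors by Set (0.951), Zcrb1 (0.915) and Uqcrb (0.908), and the committed and premyelinating genes by Arhgef19 (0.965), Nfatc2 (0.963) and A330102I10Rik (0.956). Each group was taken as the unscaled mean of its genes, so Gpr17, the most variable, weighed most among the committed and premyelinating genes. Its deviation in Cort-/- MCAO replicate 4 alone was −0.82 on the log2 scale. The r values were picked as the highest of many and are given with no test. Depth, tissue composition and RNA quality of a library enter every gene measured in it.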

How the data were processed

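RNA was sequenced from whole hemispheres as poly(A) libraries made with a kit that keeps the strand. The deposited values are RPKM per gene for 14 libraries, which the authors made with the reanalyzerGSE pipeline on genome build GRCm39 with a GENCODE annotation; the aligner and the strand setting of the count step are not given in the sources used here. The authors filtered out genes without reads in all but 1 sample and, where replicates varied widely, kept only those that grouped clearly, which can lower the spread within groups.

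Differences were tested with limma 3.58.1 (R 4.3.3) on log2(RPKM + 0.1), empirical Bayes with a mean-variance trend, in one model of the 4 groups over 46102 genes above 0 in at least 2 libraries, with Benjamini-Hochberg adjustment. A fold change on this scale understates the change of low genes, and a gene was called at an adjusted p under 0.05. Low values are whole multiples of 1 read, and all of the 495656 values above 0 gave whole reads within 0.01 (100.0%). These reads gave the depth of 25989679 to 43032304 per library, counting errors (which cover counting only) and an added limma voom fit, chosen after seeing the data. The fit was checked on simulated data, where it missed most of the smallest changes and made more false calls than the threshold nominally allows. None of the 19 pairs of libraries of the same group agreed closely enough to be copies (their chi-square statistic was 5.82 to 26.3 times its degrees of freedom). The labels give separate biological replicates, but p-values measure only the spread between these libraries.

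The 10 genes, the lists and the tests were chosen with earlier results of these data known. Genes named are the 10, those of the other lineage genes past the threshold, Mbp, Mog and Myrf of the myelin genes (a further one is not reported here), the first 2 of each marker list, and the 3 nearest in pattern to each group. Trf, Pdgfrl and Notch3 were named after their values were seen. Alternatives were pseudocounts of 1 and 0.01, a mean of at least 0.5 RPKM, no filter, rescaling to TPM, median-ratio and quantile scaling, only the groups compared, library weights, a replicate block and leaving out each library. Gene positions follow a later GENCODE annotation of GRCm39 than the authors' own. Figures were drawn with matplotlib 3.10.9 and summaries made with pandas 2.3.3 in Python 3.11.15.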

Additional observations from a re-analysis of the deposited data

How the results depend on the processing

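The 10 lineage genes stayed at 0 called in all 124 alternative counts over the 5 comparisons, limma voom included; the lowest adjusted p of any of them was 0.0517 (Olig2, Cort-/- hemispheres). Across the alternatives the adjusted p in Cort-/- mice ranged from 0.0517 to 0.448 for Olig2, from 0.0816 to 0.462 for Bcas1 and from 0.0669 to 0.538 for Tnr. Of 822 alternative values of named genes, 802 kept direction and side of the threshold, 4 lost a call (Id4 and Trf in Cort-/- mice, each with only the groups compared and with a replicate block) and 16 reversed, all of values that were not called. The cause of these changes was not tested. With library weights the Cort+/+ log2FC of Olig2 was −0.016.

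With the replicate number as a block, 0 of 10 genes were called, and the log2FC was −0.099 for Olig2 and −0.013 for Sox10 in Cort+/+ mice and 0.0022 for Gpr17 in Cort-/- mice, with an interaction of 0.019 for Gpr17. Libraries with the same number correlated at −0.17 to 0.24 in their deviations from group means. With so few libraries per group, these values cannot decide whether a shared number marks the same mouse.

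Leaving out 1 library gave log2FC values of −0.11 to 0.038 for Cspg4, −0.29 to 0.045 for Gpr17 and −0.0079 to 0.076 for Ptprz1 in Cort-/- mice, reversed without Cort-/- CL replicate 2, MCAO replicate 4 and MCAO replicate 5. In Cort+/+ mice they were −0.24 to 0.055 for Gpr17 (reversed without MCAO replicate 3), −0.052 to 0.13 for Olig2 (without CL replicates 1 or 2 or MCAO replicate 4) and −0.014 to 0.13 for Sox10 (without CL replicate 1). The interaction of Gpr17 was −0.22 to 0.13. The spread within groups of Gpr17 (12.4% to 30.2%) was above its counting error (2.42% to 2.69%).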
